A study of Homo sapiens with 480 samples.

Results

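The cells described here are BJ fibroblasts, an established human skin fibroblast line, profiled one by one 2 days after the 4 reprogramming factors OCT4, SOX2, KLF4 and MYC were switched on from viral copies. A cell was kept if, after its FPKM values (fragments scaled by transcript length and library size) were rescaled to a total of 1000000, at least 2000 genes and ACTB or GAPDH stood at 1 or more. All 96 day-2 cells passed, out of 460 kept of 480 cells in the series. Values in 92 BJ cells that received no factors and 92 cells at day 8 of factor expression are set beside them where they show a difference; day 16 cells are not used here. The labels name no separate cultures within a group, so each group counts as 1 sample, cells are not replicates of a condition, no test or p-value was computed, and every value describes these cells only.

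Reprogramming begins when OCT4, SOX2 and KLF4 open and occupy regulatory DNA while MYC raises transcription of growth genes, and in the first days most cells lose parts of the fibroblast programme without yet switching on the pluripotency network. Each cell of a virally infected culture can carry a different dose of each factor, and viral infection is known to induce interferon-stimulated genes. A factor's value here does not separate its viral from its own chromosomal copies.

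The number of genes at 1 or more per day-2 cell had a lowest value of 2248, a median of 5880.5 and a highest of 8478, and 15 cells had fewer than 4000. Read numbers cannot be had from FPKM, so sequencing depth per cell is unknown and limits the precision of every low value. In 3 cells small RNA genes of the nucleus took over 40% of the total, from 47.2% to 93.8%. Counting all small RNA and mitochondrial genes, 15 cells were over 10%, with a highest share of 94.1%. FPKM totals before rescaling ran from 481794 to 7.49e+07 per cell, with a median of 798970. No 2 day-2 cells held identical values. Because a cell with few detected genes is low in most genes at once, most correlations below are given with a version that holds the number of detected genes constant (partial rho) or with its value in the 81 cells that had 4000 or more genes. A share of 0 among 96 cells allows up to 3.13% of cells.

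Of the 4 genes taken as markers of the group, MYC, KRT18 and ISG15 were found in nearly every cell and SOX2 in a majority, all at very unequal levels. MYC was at 1 or more in 95 of 96 day-2 cells (98.96%, exact binomial 95% interval 94.3 to 99.97), with a lowest value of 0.853, a median of 676 and a highest of 5051. KRT18, a keratin of simple epithelia, was found in 96 of 96 cells, with a lowest value of 2.33, a median of 647 and a highest of 11769. ISG15, a ubiquitin-like protein induced by interferon, was found in 95 cells, with a lowest value of 0, a median of 456 and a highest of 8727. SOX2 stood apart from these, at 1 or more in 59 of 96 cells (61.5%, 50.97 to 71.2), with quartiles of 0, 16.7 and 104.6 and a highest value of 369. KLF4 was found in 76 cells (79.2%, 69.7 to 86.8), with a median of 9.63 and a highest value of 285. MYC medians were 11.5 in BJ, 676 at day 2 and 200.8 at day 8, and SOX2 was detected in 2.17% of BJ cells, 61.5% of day-2 cells and 82.6% of day-8 cells. KRT18 was also found in most BJ cells, and most day-8 cells lay above its day-2 median of 647. ISG15 was found in many cells of both other groups, so detection of these 2 genes is not particular to day 2. These intervals cover counting of cells only.

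**Figure D1:**
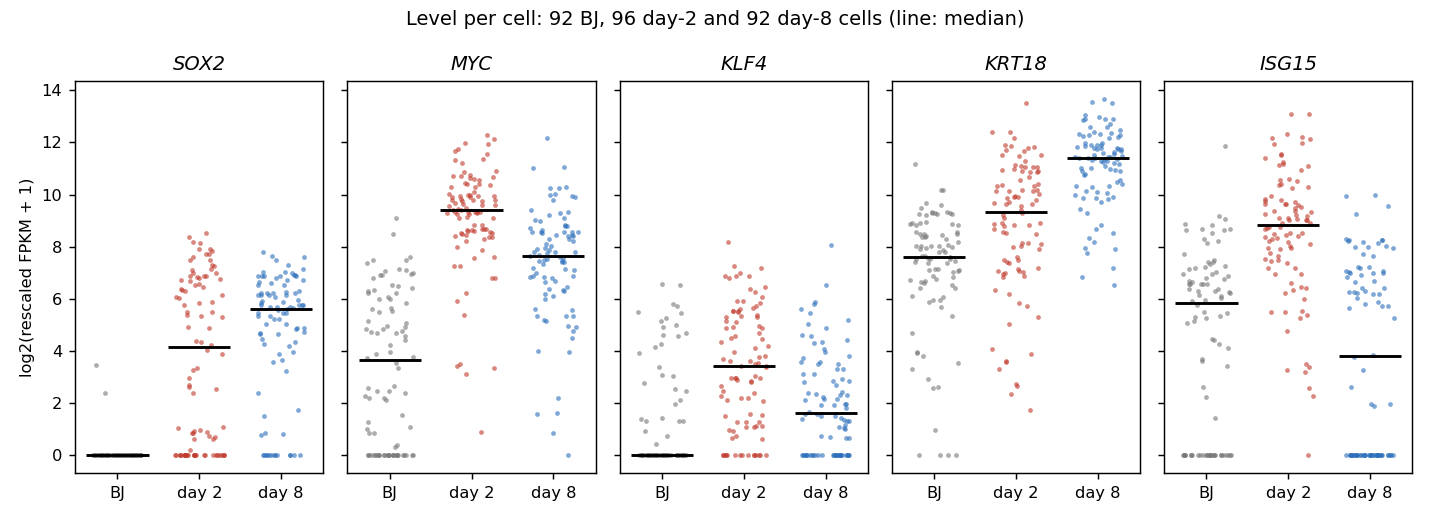
Level of SOX2, MYC, KLF4, KRT18 and ISG15 in single cells, as log2(rescaled FPKM + 1), in BJ, day-2 and day-8 cells; each point is 1 cell and the line is the median. Day-2 cells form a band of high MYC (median 676), while SOX2 ranges from 0 to 369 with 37 of 96 cells below 1.

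Every day-2 cell held fibroblast genes, and 7 of the 30 genes of that list were detected in all cells. The summed level of the list had a median of 18953 at day 2, against 17043 in BJ. LUM (lumican) was below 1 in 32.3% of day-2 cells. It was detected in 67.7% of day-2 cells and in 81.5% of BJ cells, where detection was thus also incomplete. DCN (decorin) was detected in 29 cells with LUM and in 4 without it. COL1A1 and COL1A2, the chains of type I collagen, FN1 (fibronectin) and VIM (vimentin) were detected in 96 of 96 day-2 cells, and the cell with fewest had 17 of the 29 fibroblast genes that were detected in at least 10% of cells. Among markers of other cell types, the leukocyte gene PTPRC was detected in 2 cells, the endothelial genes PECAM1, KDR and VWF in 0, the neural genes SOX1 and DCX in 0, and the adipocyte gene FABP4 in 0. Not all such markers were absent. Detection in some day-2 cell was seen for 15 of 20 blood and immune, 8 of 11 endothelial, 11 of 13 neural and 6 of 8 adipocyte genes. In the same order, 3, 3, 5 and 1 of these genes were detected in at least 10% of cells. The neural gene STMN2 was below 1 in only 34.4% of cells (mean 146), and the muscle gene DES in 62.5%. Of the 5 neural genes detected in at least 10% of cells, a median of 3 was detected per cell. Of the pluripotency genes, NANOG was detected in 1 cell (highest 4.72), TDGF1 in 1 (highest 1.00), and LIN28A and DPPA4 in 0. The list was not silent, as 20 of its 29 genes were detected in some day-2 cell and 4 in at least 10% of cells. Its summed level had a median of 24.1 at day 2, against 4.52 in BJ and 457 at day 8. POU5F1, which encodes OCT4, was detected in 7 cells and never exceeded 8.95. Whether the tables capture OCT4 RNA was not tested, so no OCT4 level is read from these values.

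Most cells held several factors at once, and their levels were graded together. SOX2, MYC and KLF4 were all detected in 54 of 96 day-2 cells, MYC and KLF4 without SOX2 in 22, MYC alone in 15, SOX2 and MYC in 4, and SOX2 alone in 1. The cell with SOX2 alone is the one in which nuclear small RNA took 93.8% of the total. MYC and KLF4 had the closest relation, with a Spearman rho of 0.71 over the 96 cells, 0.64 with detected genes held constant and 0.71 in the 81 cells of 4000 or more genes. All 76 cells with KLF4 also had MYC. In the 92 BJ cells, where neither factor had been delivered, the rho of MYC with KLF4 was −0.04, and in day-8 cells it was 0.47. SOX2 followed the other two less closely, at 0.41 with KLF4 (partial 0.29) and 0.31 with MYC (partial 0.20). In the 59 cells with SOX2 the median KLF4 was 13.1 and KLF4 was detected in 54, against a median of 2.00 and 22 of 37 among cells without SOX2. MYC had a median of 816 in cells with SOX2 and 549 in those without, a small gap beside its range in both. The SOX2 cells also had more detected genes, with a median of 6113 against 5535.

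MT2A and COL1A1 were lower in cells with more SOX2, and genes such as GDF15 and GSN were higher. Of 7178 genes tested against SOX2 (mean of 5 or more, detected in at least 10% of cells), 91 had a rho of 0.4 or more over the 96 cells (1.27%) and 2 had −0.4 or less (0.0279%). The 2 were MT2A, a metal-binding stress protein (−0.53, partial −0.51), and COL1A1 (−0.40, partial −0.46). FGF1, a growth factor (−0.39, partial −0.47), and TIMP3, an inhibitor of matrix proteases (−0.39, partial −0.44), came next. The balance changes when sparse cells are set aside: among the 81 cells of 4000 or more genes, 51 genes had a rho of 0.4 or more (0.711%) and 46 had −0.4 or less (0.641%), and the median rho of all tested genes was 0.03.

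In SOX2 cells MT2A had a lowest value of 0, a median of 1623 and a highest of 19697, against 0, 8368 and 63168 in cells without SOX2. COL1A1 had a lowest value of 2.66, a median of 127 and a highest of 675 in SOX2 cells, against 8.12, 281 and 2572 in the others. FN1 had a median of 466 in SOX2 cells, against 1041 in the others. The ranges overlapped for all 3 genes, so SOX2 detection separated medians and not individual cells.

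**Figure D2:**
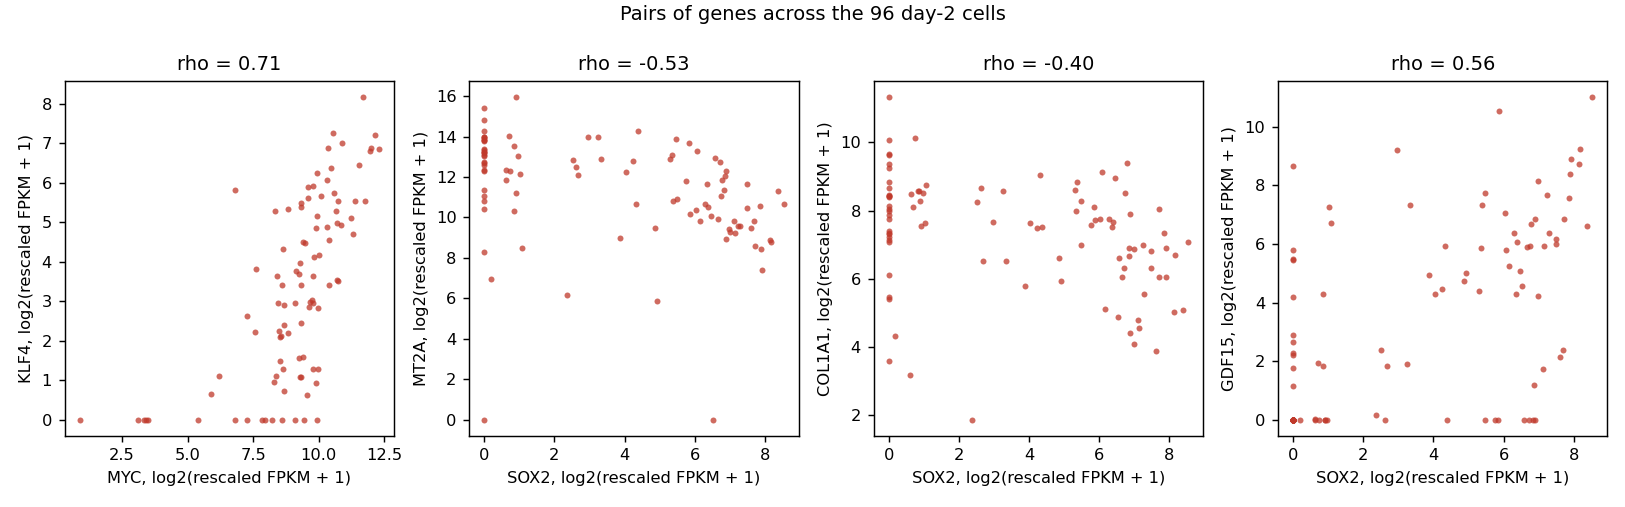
Pairs of genes across the 96 day-2 cells, each axis as log2(rescaled FPKM + 1) and each point 1 cell, with the Spearman rho above each panel. KLF4 climbs with MYC (0.71), MT2A and COL1A1 are lower where SOX2 is high (−0.53 and −0.40), and GDF15 is higher (0.56).

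The examples given from the 46 genes were chosen after their values were seen. Besides MT2A (−0.65 in the 81 cells) and COL1A1 (−0.55), they held TNFRSF12A, the receptor for TWEAK (−0.60), the actin gene ACTB (−0.50), and ZYX and PXN, which encode the focal adhesion proteins zyxin and paxillin (−0.49 and −0.40). TPM1 (tropomyosin, −0.44), CALD1 (caldesmon, −0.45), FLNA (filamin A, −0.44), ACTN1 (alpha-actinin, −0.41) and MYH9 (non-muscle myosin heavy chain, −0.42) are parts of actin bundles. The BMP responsive genes ID1 (−0.41) and ID3 (−0.48) and the BMP antagonist GREM1 (−0.47) were also among them. Of the fixed lists, 6 of 29 fibroblast genes and 4 of 15 contractile genes stood at −0.4 or less in the 81 cells, beside 0.641% of all tested genes. All 15 contractile genes had a negative rho there, with a median of −0.30, and 24 of 29 fibroblast genes did, with a median of −0.21, beside 43% of all tested genes and a median of 0.03. The summary score of the fibroblast genes (mean log2 of value + 1 over members) had a rho with SOX2 of −0.20 over 96 cells (partial −0.32) and −0.41 over the 81. Rescaled values are shares of a cell's total, so a lower share of abundant genes such as MT2A and ACTB goes with higher shares of other genes, and the part of this in the positive relations was not tested.

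The genes that accompanied SOX2 positively were of several kinds. SBF2-AS1, a long noncoding RNA, had the highest rho (0.61, partial 0.59) and was detected in 28 of 59 SOX2 cells, against 3 of 37 others. KCTD12, an auxiliary subunit of GABA-B receptors (0.56, partial 0.50), was detected in 32 SOX2 cells against 2 others, and LAMA4, a laminin chain of basement membranes (0.54, partial 0.49), in 34 against 7. These 3 genes are low or absent in most cells. SOX2 cells hold nearly all of the detections of SBF2-AS1 and KCTD12 and most of those of LAMA4. GDF15, a stress-induced cytokine (0.56, partial 0.47), was found in 49 of 59 SOX2 cells with a median of 56.7, against 14 of 37 with a median of 0. GSN, the actin-severing protein gelsolin (0.55, partial 0.47), had a median of 111 in SOX2 cells and 33.1 in the others. AHCY, which breaks down S-adenosylhomocysteine (0.54, partial 0.45), OCIAD2 (0.54, partial 0.47) and the magnesium transporter gene NIPA1 (0.53, partial 0.45) completed the 8 highest.

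Among the 22 lists scored, the list of damage-induced genes and cyclin-dependent kinase inhibitors had the highest rho with SOX2. Its score had a rho with SOX2 of 0.49 (partial 0.37), and 3 of 17 members reached 0.4, namely GDF15, ZMAT3 and SESN1, beside 1.27% of all tested genes. A positive rho was held by 14 of the 17, beside 78.6% of all tested genes, and the members' median was 0.19 against 0.11. CDKN1A, an inhibitor of cyclin-dependent kinases, had 0.19 with SOX2 (partial 0.14). The score of the list had a rho of 0.69 with the number of detected genes, and SOX2 one of 0.35. Most other stress lists did not share this sign once detected genes were held constant. Partial values with SOX2 were −0.17 for unfolded protein and integrated stress genes, −0.07 for heat shock genes and −0.37 for AP-1 and immediate-early genes. The list of NRF2 targets, which are oxidative stress genes, had 0.04.

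The number of genes that went with each factor, and the order of the factors by that number, changed once detected genes were held constant. For MYC, 162 of 7178 genes had a rho of 0.4 or more (2.26%) and none −0.4 or less (0%). For KLF4 the counts were 346 (4.82%) and 4 (0.0557%). Over the 96 cells both counts were thus above the 91 of SOX2. With detected genes held constant 25 genes stood at 0.4 or more for SOX2, 15 for MYC and 21 for KLF4. In the 81 cells of 4000 or more genes the counts were 51 for SOX2, 26 for MYC (0.362%) and 55 for KLF4 (0.766%). At −0.4 or less in those 81 cells there were 0 genes for MYC (0%) and 2 for KLF4 (0.0279%). Without the 3 cells rich in small RNA, 2 genes stood at −0.4 or less with MYC and 10 with KLF4. On FPKM as deposited, 80 genes reached 0.4 with SOX2, 52 with MYC and 156 with KLF4. The sets of MYC and KLF4 overlapped in 88 genes, 54.3% of the MYC set and 25.4% of the KLF4 set. SOX2 shared 20 genes with MYC (21.98% of the SOX2 set and 12.3% of the MYC set) and 28 with KLF4 (30.8% and 8.09%).

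After KLF4, the genes closest to MYC were TIMM13, a chaperone of mitochondrial protein import (0.59, partial 0.48), the nucleic acid binding protein gene CNBP (0.56, partial 0.44), BOLA2-SMG1P6 (0.53), the palmitoyltransferase gene ZDHHC9 (0.53), ATP6V1G1, a subunit of the proton pump of acidic organelles (0.52), the respiratory complex I subunit gene NDUFB2 (0.52) and KIAA0391 (0.51), with partial values of the last 5 from 0.39 to 0.46. BOLA2-SMG1P6 lies among near-identical copies, so its level is uncertain. The lowest rho with MYC were those of PCK1 (−0.36), RNF213, MROH8 and EFCAB5 (−0.32 each), whose rho with detected genes ran from −0.41 to −0.52 and whose partial values ran from −0.14 to −0.23. Genes closest to KLF4 after MYC were CNBP (0.65, partial 0.49), the mitochondrial inner membrane protein gene GHITM (0.63, partial 0.51), the ribosomal protein genes RPS21 (0.58) and, in mitochondria, DAP3 (0.58), the lipoprotein receptor chaperone gene LRPAP1 (0.57), TMEM50A (0.57) and PFKM, a phosphofructokinase of glycolysis (0.57), with partial values of the last 5 from 0.37 to 0.45. Among the 4 genes at −0.4 or less with KLF4 were GOLGA2P6 (−0.46), BCS1L (−0.44) and LINC01370 (−0.43), and the partial values of these 3 were −0.20 to −0.32.

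Of 30 known MYC target genes, 8 reached a rho of 0.4 with MYC over the 96 cells, beside 2.26% of all tested genes. A positive rho was held by 28 of the 30, but also by 88.8% of all tested genes, and the members' median was 0.28 against 0.16. The 8 included NPM1 (nucleophosmin, 0.42, partial 0.23), NOP16 and NHP2 of ribosome biogenesis (0.43 and 0.42, partial 0.30 and 0.28), HSPD1, a mitochondrial chaperonin (0.41, partial 0.28), and ODC1, the first enzyme of polyamine synthesis (0.48, partial 0.40). In the 81 cells of 4000 or more genes 2 members reached 0.4, EIF4E and ODC1, beside 0.362% of all tested genes, and the members' median was 0.22 against 0.06 for all tested genes. The score of the list had a rho with MYC of 0.53 (partial 0.38), and with detected genes of 0.76. The glycolysis score went with KLF4, at a rho of 0.63 (partial 0.46). Of its 20 members 4 stood at 0.4 or more, namely PFKM, ENO1 (0.40, partial 0.16), PGK1 (0.41, partial 0.20) and PFKP (0.41, partial 0.26), beside 4.82% of all tested genes. In the 81 cells 1 member, PFKM, stood there. Of 15 AP-1 and immediate-early genes 3 reached 0.4 with KLF4, FOSB (0.49), FOS (0.42) and IER2 (0.40), beside the same 4.82%, and in the 81 cells FOSB alone (0.43). The score of that list had a rho with KLF4 of 0.44 (partial 0.30, and 0.29 in the 81 cells), and with SOX2 of −0.17 (partial −0.37, and −0.41 in the 81 cells).

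Detection was split into present and absent groups for many genes. A gene was called bimodal when its mean was 10 or more, at least 20% of cells were below 1, at least 20% were at 32 or more and at most 10% lay from 1 to below 8. Of 5260 genes tested in day-2 cells, 677 met this (12.9%), as did 8.4% of 5320 genes in BJ and 16.4% of 5245 in day-8 cells. The share at day 2 thus lay between those of the other groups. With undetected set at under 0.1, 407 day-2 genes met the rule. Of the 677, 225 were also bimodal in BJ (33.2% of the day-2 genes and 50.3% of the BJ genes) and 318 at day 8 (46.97% of the day-2 genes and 37.02% of the day-8 genes). In BJ, 16 of the 677 were detected in under 20% of cells and 109 in over 80%. Another 2572 tested genes were detected in 20 to 80% of cells without meeting the rule. The median rho with detected genes was 0.34 for bimodal genes and 0.31 for all tested genes.

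**Figure D3:**
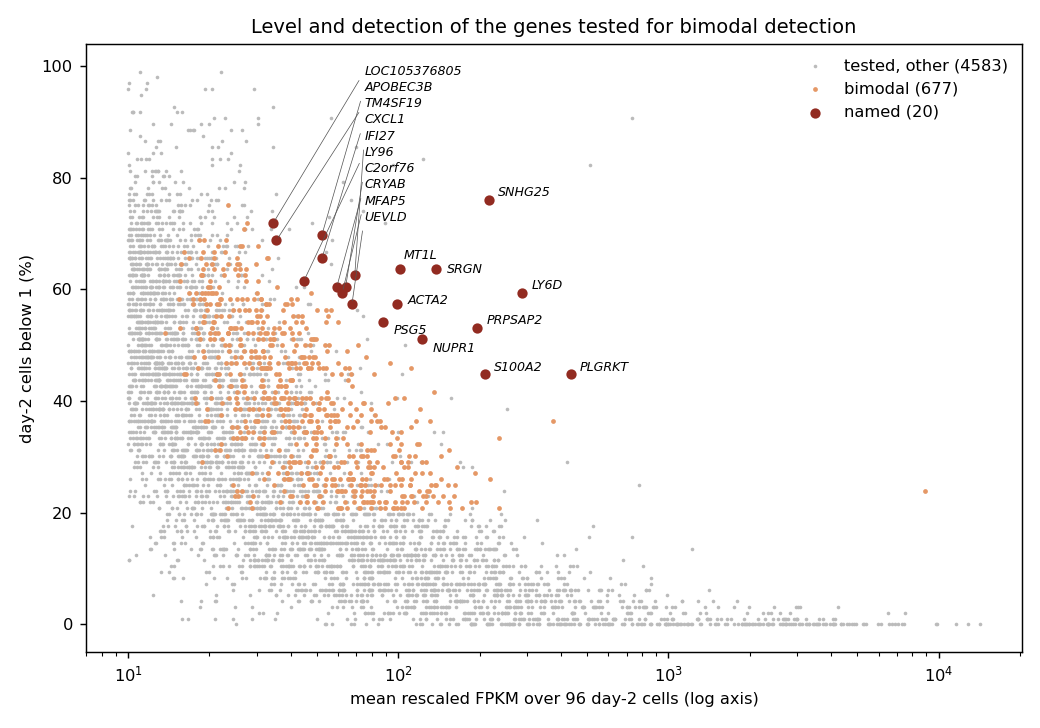
Mean level (log axis, rescaled FPKM) and percentage of day-2 cells below 1 for the 5260 genes tested; orange points are the 677 bimodal genes and dark points the 20 named ones. The named genes lie above the band of genes at the same mean, SNHG25 farthest, with 76.04% of cells below 1 at a mean of 217.

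The 20 bimodal genes with the largest surplus of empty cells over genes of like mean level ranged over several kinds of gene. Some of these means were raised by a very high value. PLGRKT had a mean of 434, a median of 116 where present and a highest value of 31751. The same values were 196, 50.5 and 14655 for PRPSAP2, 67.4, 32.9 and 4529 for UEVLD, and 138, 91.3 and 7446 for SRGN. The size of the surplus is therefore uncertain for such genes. SNHG25, a host gene of small nucleolar RNAs, was detected in 23 of 96 cells with a median of 814 where present, 68.8 percentage points more empty cells than genes of its level. It overlaps small RNA genes, so its level is uncertain. LY6D, a surface marker of stratified epithelia, was detected in 39 cells, with a median of 96.8 where present and a highest value of 9161, and in 1.09% of BJ cells. SRGN, the proteoglycan serglycin, was detected in 35 cells, the cytidine deaminase gene APOBEC3B in 29 and IFI27, an interferon-induced mitochondrial protein, in 36. IFI27 had a median of 96.2 where present and was found in 1.09% of BJ cells. CXCL1, a neutrophil chemokine, was detected in 33 cells, TM4SF19, a tetraspanin-like membrane protein, in 30 and S100A2, a keratinocyte calcium-binding protein, in 53.

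Some of the 20 were detected in a larger share of BJ cells, others in a similar or smaller one. ACTA2, the smooth muscle actin of activated fibroblasts, was detected in 42.7% of day-2 cells and 83.7% of BJ cells, with means of 98.9 and 464. PSG5, a pregnancy-specific glycoprotein, was detected in 45.8% of day-2 and 79.3% of BJ cells. MFAP5, a microfibril protein, was detected in 40.6% of day-2 and 27.2% of BJ cells, the small heat shock protein gene CRYAB in 39.6% and 41.3%, and the stress regulator NUPR1 in 48.96% and 63.04%. The metallothionein MT1L (36.5% of day-2 cells), PRPSAP2 (46.9%), PLGRKT (55.2%), C2orf76 (39.6%), UEVLD (42.7%), LY96 (38.5%) and LOC105376805 (28.1%) completed the set. Reads of MT1L are shared with near-identical metallothionein copies, so its split is uncertain. None of the 20 had a rho of 0.4 with SOX2, MYC or KLF4; their values ran from −0.25 for CRYAB with SOX2 to 0.32 for TM4SF19 with MYC.

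SOX2 itself met the rule, with 38.5% of cells below 1, 7.29% from 1 to below 8 and 44.8% at 32 or more, while KLF4 did not, with 27.1% of cells from 1 to below 8. Some of the cells below 1 held SOX2 above 0, at 0.14 to 0.969. With undetected set at under 0.1, SOX2 did not meet the rule, because too many cells then lay in the middle class. Among the gene lists, bimodal members made up 5 of 8 tested inflammatory genes, 7 of 25 of G2 and M phase, 4 of 19 of S phase and 4 of 20 interferon genes, against 2 of 26 fibroblast genes, 1 of 14 contractile genes and 0 of 28 MYC targets, 0 of 14 glycolysis and 0 of 25 oxidative phosphorylation genes. Over all tested genes the share was 12.9%, and the shares of S phase and interferon genes were not far from it. The inflammatory members were CXCL1, the collagenase gene MMP1 (42 of 96 cells), the stromelysin gene MMP3 (48 cells), the adhesion receptor gene ICAM1 (51 cells) and NFKBIA, the inhibitor of NF-kappaB (67 cells). NFKBIA was the member that followed the factors, with a rho of 0.47 with MYC (partial 0.40) and 0.49 with KLF4 (partial 0.41). MMP3 lay just inside the rule with 9.38% of cells from 1 to below 8, and the keratin genes KRT14 and KRT17 just outside with 10.4%.

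Programmes shared cells to different degrees. Scores of 22 gene lists gave 231 pairs, whose rho had a median of 0.32 and ran from −0.17 to 0.82; with detected genes held constant the median was 0.07 and 20 pairs reached 0.4. The strongest pair was fibroblast with contractile genes (0.82, partial 0.81), followed by S phase with G2 and M phase (0.79, partial 0.76) and contractile genes with metallothioneins (0.68, partial 0.67). The rho of the metallothionein score with contractile genes was 0.11 in BJ, 0.68 at day 2 and 0.02 at day 8. Gene by gene, MT2A had a rho of 0.68 with TAGLN (transgelin, partial 0.71) and 0.68 with FN1 (partial 0.67), where COL1A1 with COL1A2 gave 0.81 (partial 0.81) and COL1A2 with FN1 0.72 (partial 0.75). Immediate-early genes also shared cells with fibroblast (partial 0.54) and contractile genes (0.55). At the low end were G2 and M phase with the imprinted genes around H19 and IGF2 (partial −0.35) and contractile genes with stratified keratins (partial −0.26, and −0.36 as rho in the 81 cells).

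**Figure D4:**
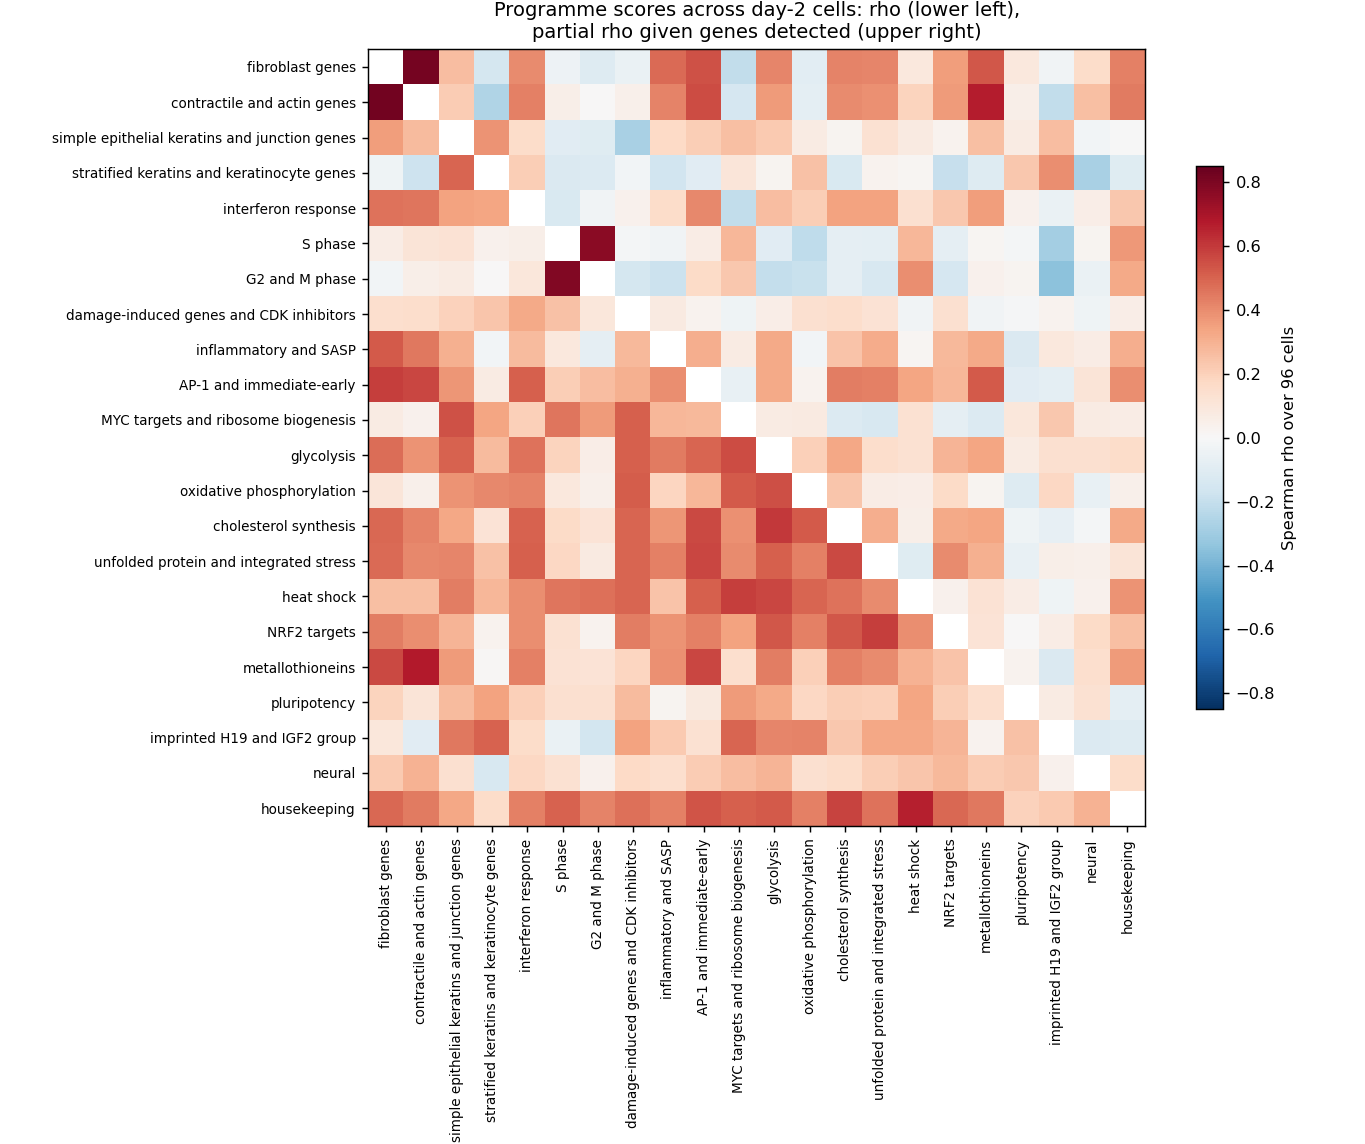
Spearman rho between the scores of 22 gene lists over the 96 day-2 cells, raw below the diagonal and with the number of detected genes held constant above it. Raw values are mostly positive (median 0.32), and with detected genes held constant (median 0.07) the fibroblast, contractile, metallothionein and immediate-early lists and the pair of cell cycle lists stand out.

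Cell cycle genes had the highest mean rho among their own members of the 22 lists. Members of the G2 and M list had a mean rho with each other of 0.46 and those of S phase 0.44, against 0.10 over all pairs of the 7179 genes of the table that passed the level filter (5th to 95th percentile −0.11 to 0.30). The number of G2 and M genes detected per cell ran from 3 to 28 of 28, with a median of 15, and of S phase genes from 3 to 22 of 22, with a median of 13. In 49 of 96 cells at least 50% of the members of each list were detected, and in 32 cells this held for neither list. PTTG1 (securin) was detected in 90 cells with a median of 519, CKS2, a cyclin-dependent kinase subunit, in 86 and the ubiquitin-conjugating enzyme gene UBE2C in 68 with a median of 46.7 and a highest value of 5307. CCNB1, cyclin B1, was detected in 78 cells and NUSAP1, a spindle protein, in 67. PCNA, the replication clamp, was detected in 87 cells, GMNN (geminin) in 64, the ribonucleotide reductase subunit genes RRM2 and RRM1 in 84 and 80 and TYMS (thymidylate synthase) in 78. The G2 and M score had a rho of −0.12 with SOX2, 0.01 with MYC and 0.02 with KLF4, and the S phase score 0.05, 0.07 and 0.05. With detected genes held constant all 6 values were below 0, at −0.24, −0.12 and −0.15 for G2 and M and −0.10, −0.09 and −0.18 for S phase. In the 81 cells the G2 and M score had −0.20 with SOX2, and 26 of 28 members were negative, beside 43% of all tested genes.

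Promoters of the 2 cell cycle lists carry known elements, shown here because these genes move together in day-2 cells. The windows below are from RefSeq on GRCh38.p14, the tables having been made on hg19, and capitals mark the element on either strand: TTTGAA, the cell cycle homology region, for CCNB2 (cyclin B2) and PLK1 (a mitotic kinase), and an E2F site (TTTCCCGC, TTTCGCGC or TTTGGCGC) for GINS2 (a helicase subunit) and PCNA.
CCNB2, chr15:59105077-59105162, plus strand: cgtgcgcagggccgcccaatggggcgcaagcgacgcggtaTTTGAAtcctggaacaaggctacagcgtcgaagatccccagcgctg
PLK1, chr16:23678820-23678905, plus strand: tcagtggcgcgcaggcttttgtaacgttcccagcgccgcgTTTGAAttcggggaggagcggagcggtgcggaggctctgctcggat
GINS2, chr16:85688938-85689025, minus strand: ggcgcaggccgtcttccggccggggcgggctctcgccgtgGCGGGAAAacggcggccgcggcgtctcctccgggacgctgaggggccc
PCNA, chr20:5126634-5126721, minus strand: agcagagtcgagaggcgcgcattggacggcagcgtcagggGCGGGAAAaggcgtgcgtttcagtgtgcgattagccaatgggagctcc
In windows from 250 bases before to 50 after the start, TTTGAA was found for 16 of 23 G2 and M genes with a promoter in the table (69.6%) and 1 of 19 S phase genes (5.26%), and in 15.4% of all 27195 promoters. An E2F site was found for 13 of 19 S phase genes (68.4%) and 3 of 23 G2 and M genes (13.04%), and in 2.81% of all promoters. CCAAT was found for 20 of 23 G2 and M genes (86.96%), 13 of 19 S phase genes (68.4%) and 35.7% of all. A match describes letters in a window and shows neither binding nor use.

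Interferon-stimulated genes varied widely between cells, and some pairs went together more than others. The number of the 32 list genes detected per cell ran from 5 to 31, with a median of 15. IFITM3, an antiviral membrane protein, was detected in 96 of 96 cells with a median of 2213, IFITM1 in 96 with a median of 773.5 and a highest value of 16664, and IFITM2 in 94. IFI6, an interferon-induced survival factor, was detected in 92 cells with a median of 219. Among the pairs computed, the closest were IFI6 with IFITM1 (0.60, partial 0.60), ISG15 with IFI6 (0.58, partial 0.57) and the RNA sensors OAS1 and OAS2 (0.48, partial 0.46), whereas IFI6 with IFIT1, an RNA-binding antiviral protein, gave 0.09 (partial 0.06). Not every pair was closer at day 2 than in BJ. IFI6 with IFITM1 had 0.16 in BJ and 0.01 at day 8, ISG15 with IFI6 0.15 and 0.07, and IFI6 with IFIT1 0.30 and 0.10. The mean rho among members was 0.20. The interferon score was higher in cells with higher fibroblast scores (0.46, partial 0.40) and, in the 81 cells of 4000 or more genes, lower where SOX2 was high (−0.33, with 29 of 32 members negative, beside 43% of all tested genes). Over all 96 cells that relation was −0.09 (partial −0.28).

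Windows of 4 interferon genes follow, again from RefSeq on GRCh38.p14, with the interferon-stimulated response element GAAANNGAAA on either strand in capitals; ISG15 and IFI6 were found in nearly all cells and IFIT1 and IFI27 in 57 and 36 of 96.
ISG15, chr1:1013344-1013439, plus strand: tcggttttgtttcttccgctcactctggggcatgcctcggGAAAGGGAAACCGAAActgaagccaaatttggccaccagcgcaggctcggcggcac
IFI6, chr1:27672236-27672388, minus strand: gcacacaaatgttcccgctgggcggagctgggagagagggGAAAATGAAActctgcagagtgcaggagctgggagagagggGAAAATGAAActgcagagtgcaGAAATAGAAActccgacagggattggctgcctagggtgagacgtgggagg
IFIT1, chr10:89392467-89392569, plus strand: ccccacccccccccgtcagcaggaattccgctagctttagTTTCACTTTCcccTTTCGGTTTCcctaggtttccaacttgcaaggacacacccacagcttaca
IFI27, chr14:94110588-94110690, plus strand: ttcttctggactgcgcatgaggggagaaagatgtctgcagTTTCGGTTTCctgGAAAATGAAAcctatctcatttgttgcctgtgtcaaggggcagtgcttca
ISG15 has 2 overlapping matches. The element was found for 14 of 22 interferon genes with a promoter in the table (63.6%), 0 of 23 G2 and M genes and 3.65% of all promoters. The 4 windows were chosen among those with a match.

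Keratins of stratified epithelium appeared in subsets of day-2 cells that differed by gene. KRT6A, a keratin of activated keratinocytes, was detected in 59 of 96 day-2 cells, with a median of 1.74 and a highest value of 3782, and was listed at 0 in all BJ cells. KRT14, a basal keratin, was detected in 60 day-2 cells with a highest value of 2136 and was also listed at 0 in BJ. KRT17 was detected in 47 day-2 cells and 9.78% of BJ cells, and KRT16 in 25 day-2 cells and 4.35% of BJ cells. At 32 or more, 34 cells had none of these 4 genes, 37 had 1, 14 had 2, 7 had 3 and 4 had all 4. The pairs were loose: KRT16 with KRT14 and KRT16 with KRT18 each had a rho of 0.41 (partial 0.39 and 0.35), KRT6A with KRT14 0.22 (partial 0.21), and KRT6A with KRT7, a simple epithelial keratin detected in 59.8% of BJ cells, −0.30 (partial −0.31). KRT8, the usual partner of KRT18, was detected in 53 cells, with a rho of 0.29 with KRT18 (partial 0.21). KRT5 was detected in 1 cell and TP63, the keratinocyte master regulator, in 0, and the junction gene CDH1 in 0. The stratified score went with the imprinted group (0.50, partial 0.40), and H19 with KRT6A had 0.37 (partial 0.36). KRT6A shares sequence with near-identical copies, so its level is uncertain.

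The second main axis of variation between cells had a positive rho with SOX2. In a decomposition of log2(value + 1) over cells, the first component took 16.6% of the variance and had a rho of 0.94 with the number of detected genes. The second took 2.94%, with 0.21 for detected genes and 0.44 for SOX2; the genes at its ends were named after their values were seen. At the end of higher SOX2 stood HBA2, an alpha globin, PI16, a peptidase inhibitor, ASS1, an enzyme of arginine synthesis, KRT6A, LY6D, the embryonic globin gene HBZ and PTGES, a prostaglandin synthase. Not all of these followed SOX2 itself. Their rho with SOX2 ran from 0.03 for LY6D and 0.12 for KRT6A to 0.39 for PI16, beside a median of 0.11 over all tested genes. At the other end stood GREM1, TPM1, the growth factor carrier gene IGFBP3, TNFRSF12A, THBS1 (thrombospondin 1) and MT2A. The third took 2.74% and was led by TYMS, NUSAP1, GINS2 and UBE2C, with a rho of 0.01 with SOX2.

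**Figure D5:**
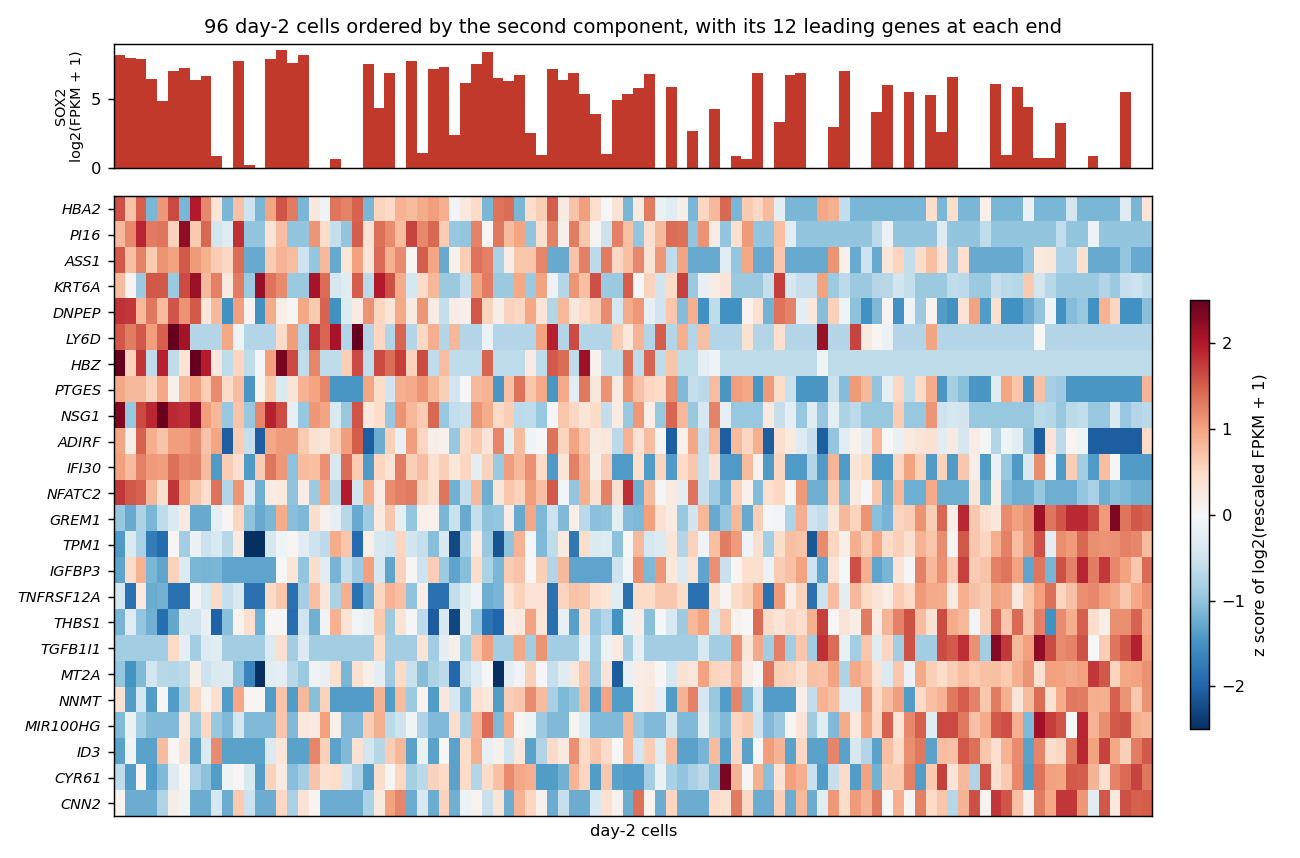
The 96 day-2 cells ordered by the second component, with SOX2 as log2(rescaled FPKM + 1) in the bars and the z score of 12 leading genes at each end below. Cells at the left more often hold HBA2, PI16, KRT6A and SOX2, and cells at the right hold GREM1, TPM1 and MT2A. Some cells far to the left had few detected genes (2248, 2907 and 3140). These had SOX2 below 1 and each lacked HBA2, PI16 or KRT6A.

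Alpha-type globins were detected in most day-2 cells. HBA2 was detected in 61 of 96 day-2 cells, with a median of 42.9 and a highest value of 7236, was listed at 0 in every BJ cell and reached 1 in 9.78% of the day-8 group. HBA1 was detected in 36 day-2 cells and HBZ in 34. HBA1 and HBA2 are near-identical copies, so the division between them is uncertain. The 3 genes shared cells, with a rho of 0.67 for HBA1 with HBA2 (partial 0.67) and 0.55 for HBA2 with HBZ (partial 0.54), and 22 cells had all 3 and 28 none. SOX2 was detected in 18 of the 22 cells with all 3, with a median of 114, and in 12 of the 28 with none, with a median of 0.827. The cells with all 3 globins also had more detected genes, with a median of 6329.5 against 5741.5 in those with none. The beta globin HBB was detected in 8 cells and PTPRC in 2. The rho with SOX2 was 0.41 for HBA1 (partial 0.38) and 0.29 for HBA2 (partial 0.27). At day 8 these 2 values were −0.04 and −0.03. The globins went with PI16, at 0.45 for HBA2 (partial 0.44) and 0.50 for HBZ (partial 0.47), and HBZ with KRT6A had 0.50 (partial 0.49).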

How the data were processed

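The submitters deposited FPKM, 1 table per group with 27021 genes and 96 cells; per the submitters' processing notes, STAR, Cuffnorm and the build hg19 were used, with versions not given in the sources used here. Per the labels' protocols, cells were captured on Fluidigm C1 chips and libraries made from polyadenylated RNA with Nextera XT. No source says if 1 normalization covered all tables, so levels set across groups are descriptions. Low FPKM values of 178 pairs of day-2 cells were compared for a fixed ratio, which whole-read counting would give; a median of 0.699% of genes lay at a common ratio (highest 2.54%), so no counts were recovered and depth is unknown.

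FPKM were rescaled to a total of 1000000 per cell, with 1 or more as detected. Doublets were not called; leaving out the 5 cells with most genes was an alternative. Spearman rho, partial rho given the rank of detected genes, list scores and the singular value decomposition were computed with Python 3.11.15, numpy 2.4.6, pandas 2.3.3 and scipy 1.17.1; the rho and bimodal calls were tested on simulated data. Small RNA and mitochondrial genes count among detected genes and in a cell's total but were left out of the bimodal and rho tests. Shares carry exact Clopper-Pearson 95% intervals. Promoters were matched by symbol.

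The group of cells, the 27 gene lists, the rules and the tests were chosen with earlier results of these data known. Named genes were the 3 factors with KRT18 and ISG15; the 20 bimodal genes with the largest excess of undetected cells over the median of the 100 genes nearest in mean; the 8 highest and 4 lowest rho per factor; and leading members of each list by mean level. A few genes that these rules name are not reported here. Genes outside these are said to be chosen after their values were seen or are members of a list or of a pair that shares cells. Scores used the members detected in at least 10% of cells, in lists with at least 4 of them.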

Additional observations from a re-analysis of the deposited data

How the results depend on the processing

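Over 26 results and 17 alternatives, 167 of 215 values kept their size (a rho within its 95% interval for 96 cells, a count within 1.5 times). The cause of the others was not tested. No rho that was 0.4 or more in size in the main setting changed sign. Sign changes of smaller rho were not counted. Bimodal genes numbered 407 with undetected set at under 0.1. The counts at rho 0.4 or more were most changeable. On deposited FPKM they were 52 (MYC) and 156 (KLF4); without small RNA and mitochondrial genes, 61 and 215; in cells of 4000 or more genes with the level filter applied again, 52 (SOX2), 26 and 55; with partial rho, 25, 15 and 21; with Pearson r of log2(value + 1), 605 (MYC) and 631 (KLF4), and of log2(value + 0.1), 651 and 944. At −0.4 or less, deposited FPKM gave 6 (SOX2) and 15 (KLF4); no small RNA 4, 1 (MYC) and 12; cells of 4000 or more genes 46 (SOX2) and 2 (KLF4); partial rho 9 and 0; Pearson r with 1 added 0, 3 (MYC) and 11, with 0.1 added 0 and 15 (KLF4). Without the 3 cells over 40% small RNA, an alternative added after seeing the data, MYC had 2 and KLF4 10. The fibroblast and contractile scores had 0.59 when scored by members detected, and SOX2 with the fibroblast score −0.41 in cells of 4000 or more genes. SOX2 was above 0 in 71.9% of cells. MYC reached 100% on deposited FPKM, without small RNA, in cells of 4000 or more genes, without the 3 cells, and above 0. KLF4 had 88.9% in cells of 4000 or more genes and 48.96% at 10 or more, KRT18 94.8% at 10 or more, and ISG15 100% and 93.8% in the same settings. No paired analysis was possible because cell numbers only name cells and nothing was tested. Depth is unknown, so absence of a low gene from a cell cannot be told apart from failed detection.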

Other observations

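Metabolic gene lists of day-2 cells differed in how many members each cell held. Oxidative phosphorylation genes were present almost everywhere, with a median of 25 of 25 members per cell and a lowest of 11, whereas cholesterol synthesis ran from 1 to 19 of 19 members with a median of 11. FDPS, which makes farnesyl diphosphate, was detected in 86 of 96 cells with a median of 223, and FDFT1, the entry enzyme of sterol synthesis, in 90 with a median of 121. The cholesterol score went with immediate-early (partial 0.43) and fibroblast genes (partial 0.42).

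H19, an imprinted noncoding RNA, was detected in 76 of 96 day-2 cells with a median of 72.96, and in 4.35% of BJ cells and 96.7% of day-8 cells. It shared cells with CKB, brain-type creatine kinase (rho 0.58, partial 0.52), as did PTGES (0.64, partial 0.55), while the same pairs had −0.01 and −0.06 in BJ. H19 with SOX2 had 0.12. These genes were chosen after their values were seen.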
